A study of Rattus norvegicus with 2 samples.

Results

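The genes described here are 10 cytoskeletal and contractile genes known as targets of serum response factor (SRF) or of mechanical load: the cytoskeletal actins Actb and Actg1, the tropomyosin Tpm4, the intermediate filament gene Vim, the smooth muscle genes Acta2, Tagln, Cnn1 and Myl9, and the secreted matrix-associated proteins Ccn1 and Ccn2. They were picked by symbol from the probe annotation, in which 9 of them had 11 probes among the 13337 genes with a named probe, and Acta2 had no named probe here. Total RNA of skeletal muscle was hybridised to Illumina rat bead arrays, and 1 array was labelled Mock and 1 was labelled EA, short for electroacupuncture, which drives a current through inserted needles. Both came from male Wistar rats of 8 to 10 weeks with diabetes induced by streptozotocin, which kills pancreatic beta cells. The protocol names the ST36 point of the lower leg, 5 min of needling, and then 60 min of stimulation at 15 Hz and 10 mA. That text is the same for both samples, and it does not say how the Mock animals were treated. The muscle sampled, the number of rats behind each array and the time from stimulation to sampling are not stated.

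With 1 array per group no value below has a replicate error, and no difference was tested. The genes were also chosen with the EA minus Mock difference in view, so these differences are descriptions of a pair of arrays. The EA label and whatever else set these samples apart cannot be told apart. In a bulk sample, fewer cells of a type and less RNA per cell cannot be told apart either. As a check of the tissue, 9 of 10 marker genes of skeletal muscle fibres had a probe and all 9 were detected on both arrays, among them the creatine kinase gene Ckm at an intensity of 36963 on the Mock and 41271 on the EA array.

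Cells outside the sarcomere build their actin filaments from beta and gamma actin, whereas muscle fibres fill their thin filaments with the sarcomeric actin encoded by Acta1. SRF binds a DNA element called the CArG box. Its coactivators of the myocardin family are held back by unpolymerised actin and released when actin assembles, so SRF links the state of the cytoskeleton to transcription of actin and smooth muscle genes. Ccn1 and Ccn2 respond to stretch and serum in many cell types, and TEAD factors, which work with the coactivators YAP and TAZ, also act on them. In muscle tissue, smooth muscle genes mark vessel walls, and Vim is expressed by fibroblasts, endothelium and leukocytes.

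The DNA before the start sites was read for these elements. RefSeq promoter sequences (GRCr8) matched 7 of the 10 genes, with no entry used for Actb, Tagln and Myl9. The 250 bases before the start of each were searched for the CArG box and for GGAATG or its reverse complement CATTCC, the core letters of a TEAD element. Both searches covered both strands, the CArG box being its own reverse complement, and the motifs do not overlap in the sequences below. The regions of Actg1 and Acta2 are shown because they hold CArG or near-CArG elements (capitals, at -90 in Actg1 and at -134 and -84 in Acta2, counted from the start site). Those of Ccn1 and Ccn2 are shown because both genes were measured and both hold the TEAD core (capitals). The Acta2 region holds a TEAD core as well, at -196.
Actg1, chr10:106120952-106121101, minus strand: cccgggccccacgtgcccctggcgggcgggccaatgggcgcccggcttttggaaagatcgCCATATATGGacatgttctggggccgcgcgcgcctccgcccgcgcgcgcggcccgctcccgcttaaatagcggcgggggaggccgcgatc
Acta2, chr1:241172504-241172708, minus strand: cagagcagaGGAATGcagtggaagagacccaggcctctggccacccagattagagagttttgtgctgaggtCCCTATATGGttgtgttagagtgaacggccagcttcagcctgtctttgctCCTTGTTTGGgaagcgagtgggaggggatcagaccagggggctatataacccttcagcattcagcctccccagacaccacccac
Ccn1, chr2:237225690-237225939, minus strand: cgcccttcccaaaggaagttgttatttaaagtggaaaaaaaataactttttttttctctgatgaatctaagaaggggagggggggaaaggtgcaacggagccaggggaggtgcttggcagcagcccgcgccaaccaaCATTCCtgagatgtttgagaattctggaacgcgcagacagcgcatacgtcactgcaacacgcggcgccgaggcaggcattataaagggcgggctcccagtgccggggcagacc
Ccn2, chr1:22624615-22624864, minus strand: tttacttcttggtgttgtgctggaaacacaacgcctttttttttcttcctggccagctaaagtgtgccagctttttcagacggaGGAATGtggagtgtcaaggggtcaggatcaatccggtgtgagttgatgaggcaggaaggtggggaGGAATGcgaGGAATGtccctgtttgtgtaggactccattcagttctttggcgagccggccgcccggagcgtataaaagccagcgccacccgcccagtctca

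A CArG box stood in 1 of the 7 regions, that of Actg1, and in 1.5% of 27457 promoter regions of the same length. With at most 1 other letter allowed in its core it stood in 2 of the 7, Actg1 and Acta2, and in 7.97% of all. GGAATG or CATTCC stood in 3 of the 7, with 1 copy in Acta2, 1 in Ccn1 at -113 and 3 in Ccn2 at -166, -101 and -92, against 11.8% of all regions. These matches describe the letters only. Neither Actg1 nor Acta2 was measured on the arrays, since Acta2 had no probe and Actg1 was not detected, and the regions of the measured genes Actb and Tagln were not searched.

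Probe signal is given first as the deposited non-normalized intensity, in arbitrary units, which includes a background of 117 on the Mock and 122 on the EA array. Levels are not compared between probes, because each probe has its own brightness. Detection means a detection p under 0.01, and the dimmest detected probe lay at 154 on the Mock and 160.3 on the EA array. Of the 9 genes with a probe, 6 were detected on both arrays and 3 on neither. Folds and log2 differences are EA over Mock after background correction and quantile normalization, unless stated otherwise.

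Among the 6 detected genes all had the higher signal on the EA array. Actb, Tpm4, Ccn1 and Tagln differed by at least 2-fold, Ccn2 lay just under that, and Vim differed least. A 2-fold or greater excess was thus seen for 4 of 6, and for 2.08% of the 5047 genes detected on both arrays. None of the 6 was 2-fold lower, against 0.456% of all genes. Since the genes were chosen on this difference, their share is given beside the background as a description only. Their median log2 difference was 1.28, and that of all 5047 genes was -0.06, with 41.2% of all genes above 0.

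**Figure D1:**
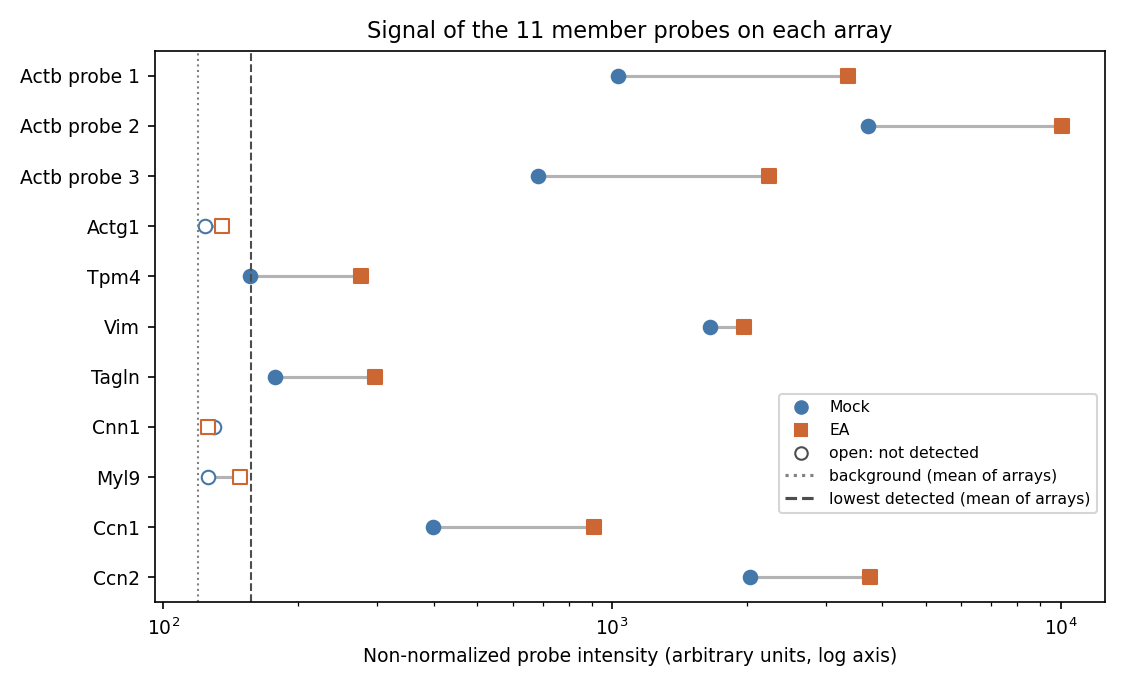
Non-normalized intensity (log axis, arbitrary units) of the 11 probes on the Mock array (circles) and the EA array (squares), 1 array each, with open symbols for probes not detected. The 3 Actb probes, Tpm4, Tagln, Ccn1 and Ccn2 lie clearly higher on the EA array, while Actg1, Cnn1 and Myl9 stay between the background and the dimmest detected signal on both arrays.

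Actb, which encodes beta actin and is widely used as a reference gene, had 3 probes. The first read 1028 on the Mock and 3347 on the EA array. The second, the brightest, read 3723 and 10030. The third read 684 and 2237, so all 3 probes had the higher value on the EA array.
After normalization the brightest Actb probe was 2.76-fold brighter on the EA array, and the others were 3.51-fold and 3.55-fold higher. Their log2 differences were 1.81, 1.46 and 1.83, with an SD of 0.21 between the 3 probes. Over 60 pairs of probes for the same gene across the array, the difference scattered with an SD of 0.25 per probe, so the Actb probes lay about as close together as probes of 1 gene did elsewhere. They were read from the same RNA and are not replicates of the condition. By its brightest probe Actb ranked 44 of 5047 genes in order of EA minus Mock.

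Actg1, the gene for gamma actin, gave no measurement of the other cytoskeletal actin. Its only probe read 124 on the Mock and 135 on the EA array, with detection p-values of 0.290 and 0.144, which is within 1.10 times the background on both arrays. The probe was not well above background, so no fold was formed and nothing follows from it for the level of gamma actin.

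Tpm4 encodes a tropomyosin that lies along actin filaments of non-muscle cells. Its probe read 156 on the Mock and 276 on the EA array. The Mock value was barely detected, at a detection p of 0.00970, and the EA value had a p of 0. The normalized fold was 2.82, with rank 42 of 5047, the top rank among the genes described here. It rests on a Mock signal 1.33 times the background, and the fold was 1.93 in the authors' deposited normalized values. Without background correction it was 1.65.

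Vim encodes vimentin, the intermediate filament protein of mesenchymal cells. Its signal was 1648 on the Mock and 1965 on the EA array, both well above background. The fold was 1.19, and the log2 difference of 0.25 equalled the SD per probe. That SD is the scatter between probes of 1 gene on the same arrays and holds no spread between animals or arrays. Its rank was 863 of 5047. With each array scaled to its 75th percentile the difference was 0.06, where that scaling put the median of all genes at -0.19, against -0.06 before.

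Of the 4 smooth muscle genes only Tagln was measured. Tagln encodes transgelin, an actin-binding protein abundant in smooth muscle. Its probe read 177 on the Mock array, with a detection p of 0.00242, and 297 on the EA array. The fold was 2.26 after normalization and 1.65 in the deposited values, and Tagln ranked 78 of 5047. As for Tpm4, the Mock signal was close to background, at 1.51 times, so the size of the fold moved with the background correction, down to a log2 difference of 0.63 without it.

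Cnn1, which encodes calponin, an actin-binding protein of differentiated smooth muscle, was detected on neither array. Its probe read 130.0 on the Mock and 126 on the EA array, with detection p-values of 0.156 and 0.390. Myl9, the regulatory light chain of smooth muscle and non-muscle myosin, read 126 and 148, with p-values of 0.228 and 0.0412. Myl9 would count as detected on the EA array at a threshold of 0.05, but Cnn1 would count on neither. Tagln therefore has no measured companion among these smooth muscle genes.

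Ccn1, listed in older annotations as Cyr61, encodes a secreted protein that binds integrins. Its probe read 398 on the Mock and 910.1 on the EA array, both with a detection p of 0. The normalized fold was 2.61 and that of the deposited values 2.09, and Ccn1 ranked 52 of 5047. Across the settings for background and normalization its log2 difference stayed between 1.07 and 1.38, at or above 2-fold in each.
Ccn2, formerly Ctgf, encodes connective tissue growth factor, a relative of Ccn1 that promotes matrix production. It read 2027 on the Mock and 3759 on the EA array. The fold was 1.89 after normalization and 1.67 in the deposited values, with rank 124 of 5047. The log2 difference lay between 0.72 and 0.92 across the settings, below 2-fold in each. With a threshold of 1.5-fold Ccn2 joins Actb, Tpm4, Ccn1 and Tagln, which makes 5 of 6, and 6.28% of all genes pass it.

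**Figure D2:**
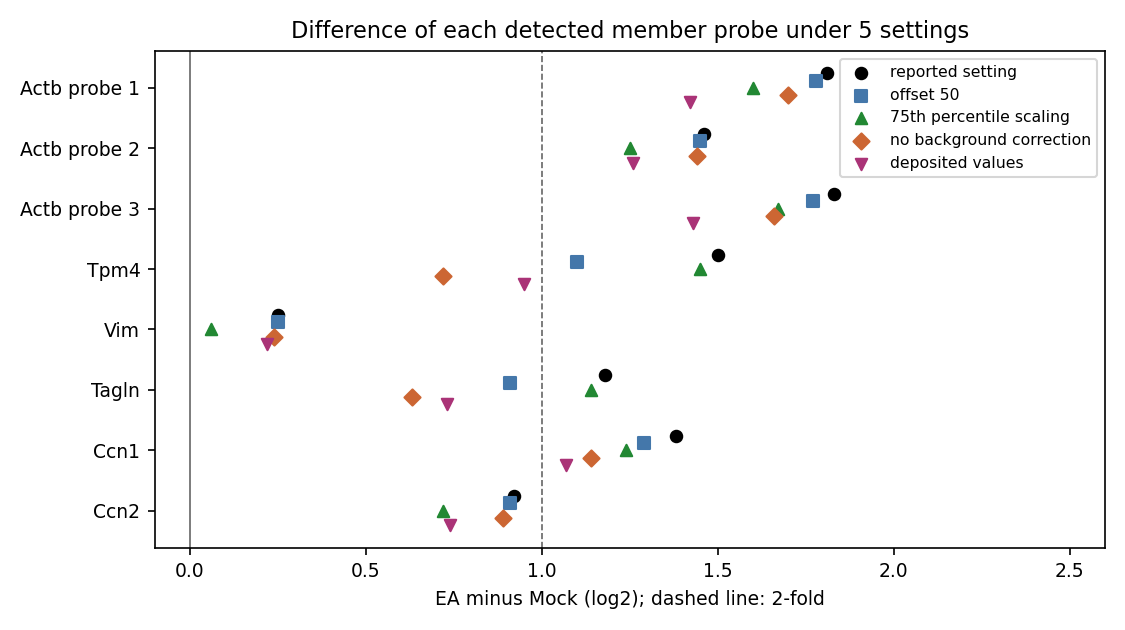
Log2 difference, EA minus Mock, of the 8 member probes detected on both arrays under 5 settings, with the dashed line at 2-fold. The Actb probes and Ccn1 stay beyond 2-fold in all 5, Tpm4 and Tagln cross the line, and Ccn2 and Vim stay below it.

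**Figure D3:**
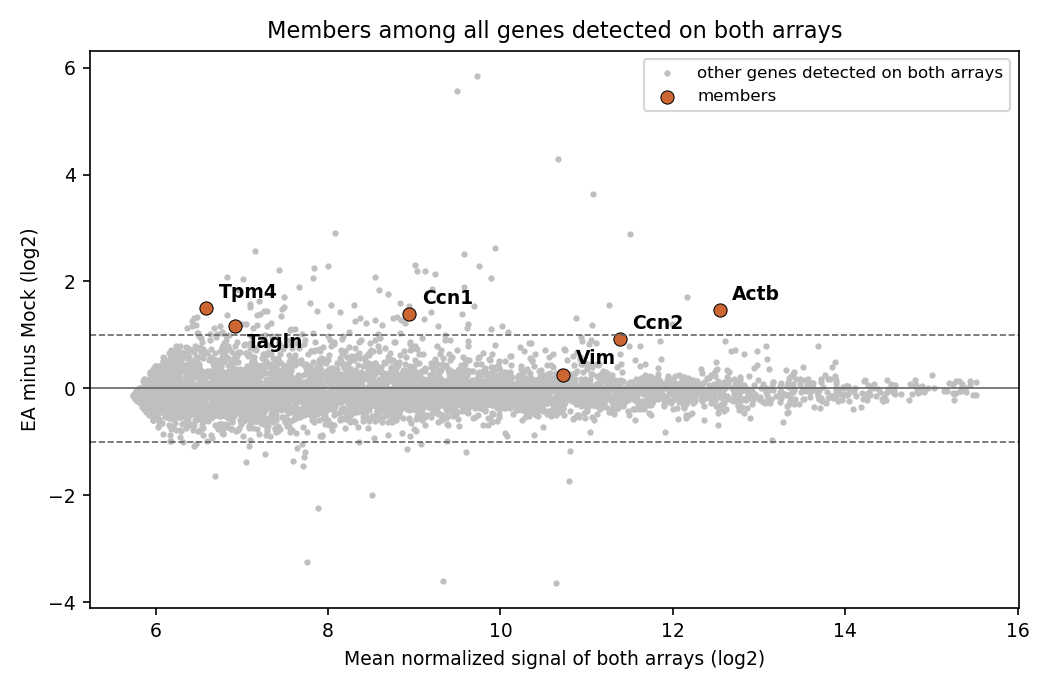
Log2 difference, EA minus Mock, against the mean normalized log2 signal of both arrays for the 5047 genes detected on both, with the 6 detected members in orange and dashed lines at 2-fold. Actb and Ccn2 lie in the bright range, where few genes differ by as much, and Tpm4 and Tagln lie near the dim end, where the scatter is wider.

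Related genes were read from 8 lists of cytoskeletal and SRF or load-related genes that leave out the 10 genes above. Together the lists held 191 genes, of which 152 had a named probe and 88 were detected on both arrays. Of the 88, 2 had a 2-fold or greater excess on the EA array (2.27%) and 0 of the 88 were 2-fold lower. Over all genes the shares were 2.08% and 0.456%. The counts past 2-fold in single lists below stand against these shares, under which a short list would often hold none. At 1.5-fold, 17 were higher (19.3%) and 1 was lower (1.14%), where 6.28% and 3.88% of all genes passed. Their median log2 difference was 0.13, against -0.06 for all genes, and with each array scaled to its 75th percentile it was -0.01, against -0.19. Of the 152 list genes with a named probe, a further 14 were detected on the EA array only and 1 on the Mock array only. Over all 13337 genes with a named probe the counts were 412 and 182.

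Srf itself read 2301 on the Mock and 2352 on the EA array, a log2 difference of 0.02, and its coactivator gene Mrtfa read 715 and 694, a difference of -0.11. The messages of the factor and of this coactivator thus differed little between the arrays. Myocd, the gene of the smooth muscle coactivator myocardin, was not detected.

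In the list of YAP, TAZ and TEAD genes and their load targets, 9 of 30 genes were detected on both arrays, with a median of 0.31. F3, the gene for tissue factor, which starts blood coagulation, was 3.59-fold higher on the EA array, from 299 to 849, the 1 member past 2-fold. Ccn3, another CCN gene, was 1.86-fold higher, and Ccn4 and Ccn5 were not detected on either array. Ankrd1, a load-responsive ankyrin repeat protein of muscle, differed by 0.34. The TAZ gene Wwtr1 differed by 0.17, Yap1 was not detected, and the lowest member was Ajuba, a LIM protein of cell junctions, at -0.12. Csrp3, a LIM protein of the muscle Z-disc, was detected on the Mock array only, at 222 against 154. Its lower bound, made from the bright signal over the floor of the dim array, put it at least 2.54-fold dimmer on the EA array. In the deposited values the bound was 1.80-fold, and 1.51-fold when background was left in.

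The list of actin assembly factors had 20 of 32 genes detected on both arrays, with a median of 0.03 and none past 2-fold. Cfl1, the non-muscle cofilin that severs actin filaments, was the highest at 0.83, while its muscle form Cfl2 differed by 0.02. Pfn1, the common profilin that loads actin monomers, differed by 0.30 and Pfn2 by -0.44. Vasp, which promotes filament growth, was the lowest at -0.53. Cap1, which recycles cofilin-bound actin, was detected on the EA array only and was at least 2.24-fold higher, or at least 1.65-fold in the deposited values and 1.43-fold when background was left in.

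The list of crosslinkers, adhesion proteins and non-muscle myosin had 15 of 36 genes detected on both arrays. Of the 15, 14 lay above 0 and none was 2-fold higher, against 41.2% and 2.08% of all genes. None was 2-fold lower. The median of the list was 0.21. S100a11, a calcium-binding protein, was the highest at 0.91, and Flna, the filamin that crosslinks actin in non-muscle cells, differed by 0.83. Flnc, the muscle filamin, was the lowest at -0.20. Itga5, a fibronectin receptor subunit, was detected on the EA array only, at 225 against 137.

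Other smooth muscle and SRF target genes had a median of -0.02, with 8 of 22 detected on both arrays and none past 2-fold. Tagln2, the non-muscle relative of Tagln, was the highest at 0.79. Smtn, which encodes smoothelin of contractile smooth muscle, differed by 0.12. Fhl1, a LIM protein of skeletal muscle, was the lowest at -0.54. Tpm3, a tropomyosin of slow fibres and non-muscle cells, differed by 0.73 in its brighter probe, and its other probe was not detected. Tpm1, of fast fibres and heart, differed by -0.22. The Tpm1 difference was smaller in size than the SD of 0.25 per probe, but it was -0.37 in the deposited values. Its probe read 41422 on the Mock and 37569 on the EA array, near the top of the array's range. The brighter Tpm3 probe read 164 on the Mock array, close to the dimmest detected signal of 154, and differed by 0.45 in the deposited values. Tpm4 was 2.82-fold higher, also from a Mock signal near background. Tpm1 was thus lower, and Tpm3 and Tpm4 higher, on the EA array in the reported and the deposited values. With 1 array per group and these limits of signal, whether the 3 measured tropomyosins differ in direction cannot be told.

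Genes of the sarcomere stood apart from Actb in value. Acta1, the skeletal muscle actin, read 41428 on the Mock and 49403 on the EA array, a log2 difference of 0.15. Tmod1, which caps thin filaments, stood level with it at 0.15 as the highest of that list, and Ldb3, a Z-disc protein, the lowest at -0.31. The list had a median of -0.06 over 10 of 17 genes, with none past 2-fold. Its brightest probes lay near the top of the array's range, where differences can be compressed, which was not tested. The cardiac actin gene Actc1 was not detected.

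Other filament systems were read from the last pair of lists. Tubulins had a median of 0.25 over 9 of 17 genes, from Tuba4a at -0.28 to Tuba1a at 0.96, with Tubb2a at 0.86 and none past 2-fold. Other intermediate filament and lamina genes had a median of 0.03 over 5 of 15 genes. They ran from Vcp, an ATPase that is no filament protein, at -0.26 to Sync, a partner of desmin, at 0.08. The muscle intermediate filament gene Des differed by 0.03, from 40675 on the Mock to 43316 on the EA array. That is near the top of the array's range, where differences can be compressed, which was not tested. Vim at 0.25, no more than the SD per probe, lay above every measured member of that list.

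**Figure D4:**
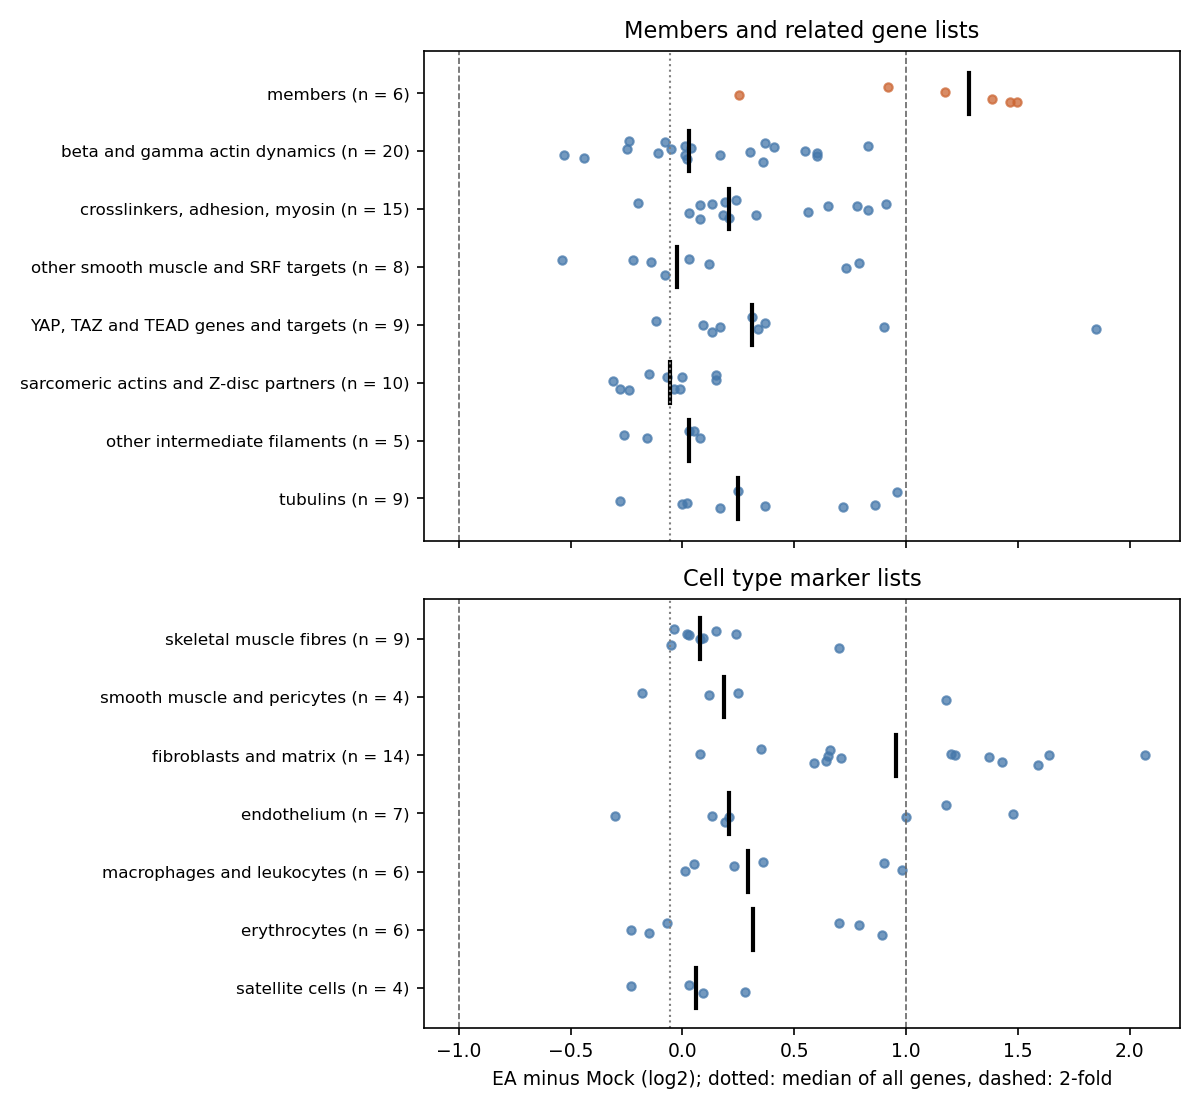
Log2 difference, EA minus Mock, of each gene detected on both arrays, for the 6 members and 7 of the related lists (upper panel) and 7 marker lists (lower panel), with n in each label, black bars at the medians, a dotted line at the median of all genes and dashed lines at 2-fold. The members have a median of 1.28, these lists lie between -0.06 and 0.31, and the fibroblast and matrix list stands at 0.96.

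Markers of other cell types also differed between the arrays, and their part in the values above was not tested. Of the 15 fibroblast and matrix markers, 14 were detected on both arrays, all 14 were above 0 and 7 exceeded 2-fold, or 4 when background was left in. Over all genes 41.2% lay above 0 and 2.08% were at least 2-fold higher, or 1.05% when background was left in. The median of this marker list was 0.96 and its summed normalized signal was 12928 on the Mock and 23337 on the EA array. Postn, which encodes periostin of remodelling matrix, was highest at 2.07, and Lum, a small matrix proteoglycan, lowest at 0.08. Fibroblasts are known to express Actb, Tpm4, Vim, Ccn1 and Ccn2.

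Of the 15 smooth muscle and pericyte markers, 12 had a probe and 4 were detected on both arrays. Their median was 0.19 and the summed signal of the list 1612 on the Mock and 1928 on the EA array. Both values include Tagln, which was chosen with its difference in view, so they are not independent of it. Besides Tagln the genes detected on both arrays were the channel subunit gene Abcc9 at 0.25, Smtn at 0.12 and the proteoglycan gene Cspg4 at -0.18. Most of the summed signal came from Smtn and Abcc9, and which cells it came from was not tested. Kcnj8 was detected on the EA array only, and Cnn1, Myl9, Lmod1, Actg2, Rgs5, Mcam and Notch3 on neither. Acta2, Myh11 and Pdgfrb had no probe named here, so apart from Tagln and Smtn no smooth muscle marker was detected on both arrays.

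Endothelial markers had a median of 0.21 over 7 of 13 genes, with 3 at least 2-fold higher (1 when background was left in, 0 in the deposited values). The share of all genes past 2-fold was 2.08% (1.05% and 0.931% in the same order). The summed signal of the endothelial list was 1242 on the Mock and 2133 on the EA array. Sox17, an endothelial transcription factor, was highest at 1.48 and Egfl7 lowest at -0.30. Cdh5, Tek and Sox18 were detected on neither array. For macrophages and leukocytes the median was 0.30 over 6 of 13, from C1qa at 0.01 to C1qc at 0.98, and sums of 1208 and 1762. Tyrobp was detected on the Mock array only, at 156 against 148, with a bound of 1.14-fold lower on the EA array. Ptprc, Cd163 and Adgre1 were detected on neither array. Erythrocyte markers had a median of 0.31 over 6 of 9, from Gypc at -0.23 to Hbb-b1 at 0.89, and sums of 20073 and 32613. Satellite cell markers had a median of 0.06 over 4 of 7, from Myog at -0.23 to Cdh15 at 0.28, and sums of 45939 and 46988, most of it from Des, and Pax7 was not detected. Skeletal fibre markers had a median of 0.08 over 9 of 10, from Tnnt3 at -0.05 to Myh4 at 0.70, and sums of 293908 and 311963. In these sums the fibroblast, endothelial, leukocyte and erythrocyte lists were higher on the EA array by 1.46 to 1.81 times, and the skeletal fibre list by 1.06 times. Most of the endothelial excess came from Cldn5, Sox17 and Esam, while Tie1, Emcn, Vwf and Egfl7 differed by 0.13, 0.21, 0.19 and -0.30. The leukocyte excess came mostly from C1qb and C1qc, while C1qa, Laptm5, Cd74 and Fcer1g differed by 0.01, 0.05, 0.23 and 0.36. Hba-a1, Hbb and Hbb-b1 made most of the erythrocyte excess. These ratios therefore do not stand for every gene of a list. The fibre sum comes mostly from probes near the top of the array's range, where differences can be compressed. Whether they were compressed here was not tested, so the fibre ratio may not be comparable with those of the dimmer lists.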

How the data were processed

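The authors deposited an unnormalized linear intensity for 22523 probes on each of 2 arrays. Beside each stands its detection p-value, per the file headers. The deposited series table holds intensity values the authors normalized by a method not given in the sources used here. It was used as an alternative, on the log2 scale. Background was corrected from the detection p-values with nec of limma 3.58.1 (R 4.3.3) and an offset of 16, followed by log2 and quantile normalization. The steps were tested on simulated data. Python 3.11.15, numpy 2.4.6, pandas 2.3.3 and matplotlib 3.10.9 did the rest.

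Symbols were updated by gene identifier or accession (RefSeq, GRCr8): 13793 probes carried 1 symbol and 8730 were unnamed here. A gene with several probes took its brightest. A gene detected on 1 array only got a lower bound over the higher of the dim signal and that array's lowest detected signal. Summed signals are normalized values less the offset. The arrays' number limits the precision. Probe sequences were not used here.

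The members and lists were chosen with earlier results of these data known. The rule named all 10 members and, in each related list, genes past 2-fold and the highest and lowest. Srf, Mrtfa, Myocd, Ccn3, Ccn4, Ccn5, Ankrd1, Wwtr1, Yap1, Cfl2, Pfn1, Pfn2, Flna, Itga5, Smtn, Tpm1, Tpm3, Acta1, Actc1, Tubb2a, Des and the markers were named for their role or relation after values were seen. The separate values of 1 related list are not reported here.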

Additional observations from a re-analysis of the deposited data

How the results depend on the processing

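Every detected member probe kept a higher signal on the EA array under each alternative for background, normalization and source of the values, and with each of these no member was 2-fold lower. The count of members at least 2-fold higher, 4 as reported, was 2 when background was left in and 2 in the deposited values, where Tpm4 and Tagln dropped out, and 3 with an offset of 50. The members' median of 1.28 was 0.80, 0.85 and 1.01 in the same order. Over all genes, 105 were 2-fold higher and 23 lower, against 53 and 8 when background was left in, 47 and 7 in the deposited values and 317 and 196 at 1.5-fold. A detection p under 0.05 gave 35 lower. Scaling to the 75th percentile gave 36 lower, moved the median gene from -0.06 to -0.19 and the share of higher among these calls from 82.0% to 71.7%. Of the related-list genes, 17 were higher and 1 lower at 1.5-fold, and 1 was lower at a detection p under 0.05. The cause of these shifts was not tested, except that a looser fold or detection threshold admits more genes by construction. Taking the mean of a gene's detected probes left the 4 members past 2-fold. Signals near background (Tpm4 and Tagln on the Mock array) limit the size of their folds. No paired analysis was possible because each group has 1 array.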
